A study of Ovis aries with 6 samples.

Results

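The synthesis of ovarian steroids was followed through 8 genes of the 30574 genes in the feature list of a single-cell atlas of the Hu sheep ovary. These were STAR, CYP11A1, HSD3B1, CYP17A1, CYP17, CYP19, HSD17B1 and FDX1, chosen by name as the cholesterol transfer protein, the enzymes of the pathway and their electron donor. Aromatase is listed as CYP19 in the deposited features, and the 17-hydroxylase is listed under 2 names, CYP17A1 and CYP17. Whole single ovaries were taken near estrus from Hu ewes of the HLS group (litter size of at least 3) and of the LLS group (litter size under 2), with 3 ewes in each group. Each ovary was digested with collagenase and trypsin and gave 1 library of droplet-based sequencing, in which unique molecular identifiers (UMI) count the captured RNA molecules from their 3′ ends. No treatment, allele or deletion is stated for either group, the labels do not pair ewes, and the groups differ in recorded litter size only as far as the labels say.

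Steroid synthesis starts when STAR lets cholesterol reach the inner mitochondrial membrane, where the side-chain cleavage enzyme CYP11A1 turns it into pregnenolone. CYP11A1 receives its electrons from the iron-sulphur protein FDX1, HSD3B1 makes progesterone from pregnenolone, and CYP17A1 opens the way to androgens. In the follicle, theca cells are known for making androgen and granulosa cells for turning it into oestrogen with CYP19 and HSD17B1, while luteal cells make progesterone.

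The deposited counts held between 43329214 and 75549906 UMI per ewe, and 36457 cells were retained, with a median of 5225 to 9816.5 UMI per cell. Any pair of libraries shared 4 to 17 barcodes among their retained cells. Cells were clustered without the 8 genes, without other genes of the pathway and without their regulators, and none of these served as a marker, so that their levels took no part in naming the types. The named types used here were granulosa-like (2846 cells), theca-like (1964), stromal-like (8245), perivascular-like (1532), endothelial-like (15126) and immune-like (2658) cells. Clusters named as cycling (1715 cells) were kept apart, although 1 cycling sub-cluster of 195 cells stayed among the granulosa-like cells. The theca-like cells were 1 cluster led by LHCGR, GSTA1 and INSL3, with INSL3 at 3.12 ± 2.84 UMI per 10000 UMI (SD, n = 6 ewes) against at most 0.0299 on average in the other types. Of the theca markers, DLK1 stood at 0.00860 in these cells and IGF2 was higher in perivascular-like cells (37.7 against 10.4). The stromal markers summed to 28.4 to 49.97 UMI per 10000 in theca-like cells and to 114 to 305 in stromal-like cells. The immune markers summed to at most 0.158 in theca-like and 0.133 in granulosa-like cells.

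Levels are given as UMI of the gene per 10000 UMI of the cell type in an ewe, in the order HLS replicates 1, 2 and 3 and then LLS replicates 1, 2 and 3. Types were compared with the quasi-likelihood test of edgeR on the UMI summed per ewe and type, with the ewe as a block and Benjamini-Hochberg adjusted p-values over all 14508 genes tested. Fold changes are on the log2 scale with their standard error. This error was worked back from the test, as the absolute fold change over the square root of its F statistic.

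Theca-like cells held the highest mean level of 5 of the 8 genes among the 6 named types, namely CYP11A1, HSD3B1, CYP17A1, CYP17 and FDX1. Granulosa-like cells held the highest mean of CYP19 and HSD17B1, and immune-like cells that of STAR. Against granulosa-like cells, 6 of the 8 genes were higher in theca-like cells and 1, CYP19, was lower, where 21.8% of all genes were called higher and 23.3% lower. Against stromal-like cells 7 of the 8 were higher and 0 lower, with 20.3% of all genes higher and 25.5% lower. Against endothelial-like cells all 8 were higher, with 31.9% of all genes higher and 35% lower, although CYP19 rested there on 7 UMI in theca-like and 9 UMI in endothelial-like cells and lost its call without HLS replicate 1 (adjusted p = 0.0782) or LLS replicate 3 (adjusted p = 0.0680) and without the ewe as a block (0.0935). Against immune-like cells 6 were higher and 1, STAR, was lower, where 34% of all genes were called in each direction.

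**Figure D1:**
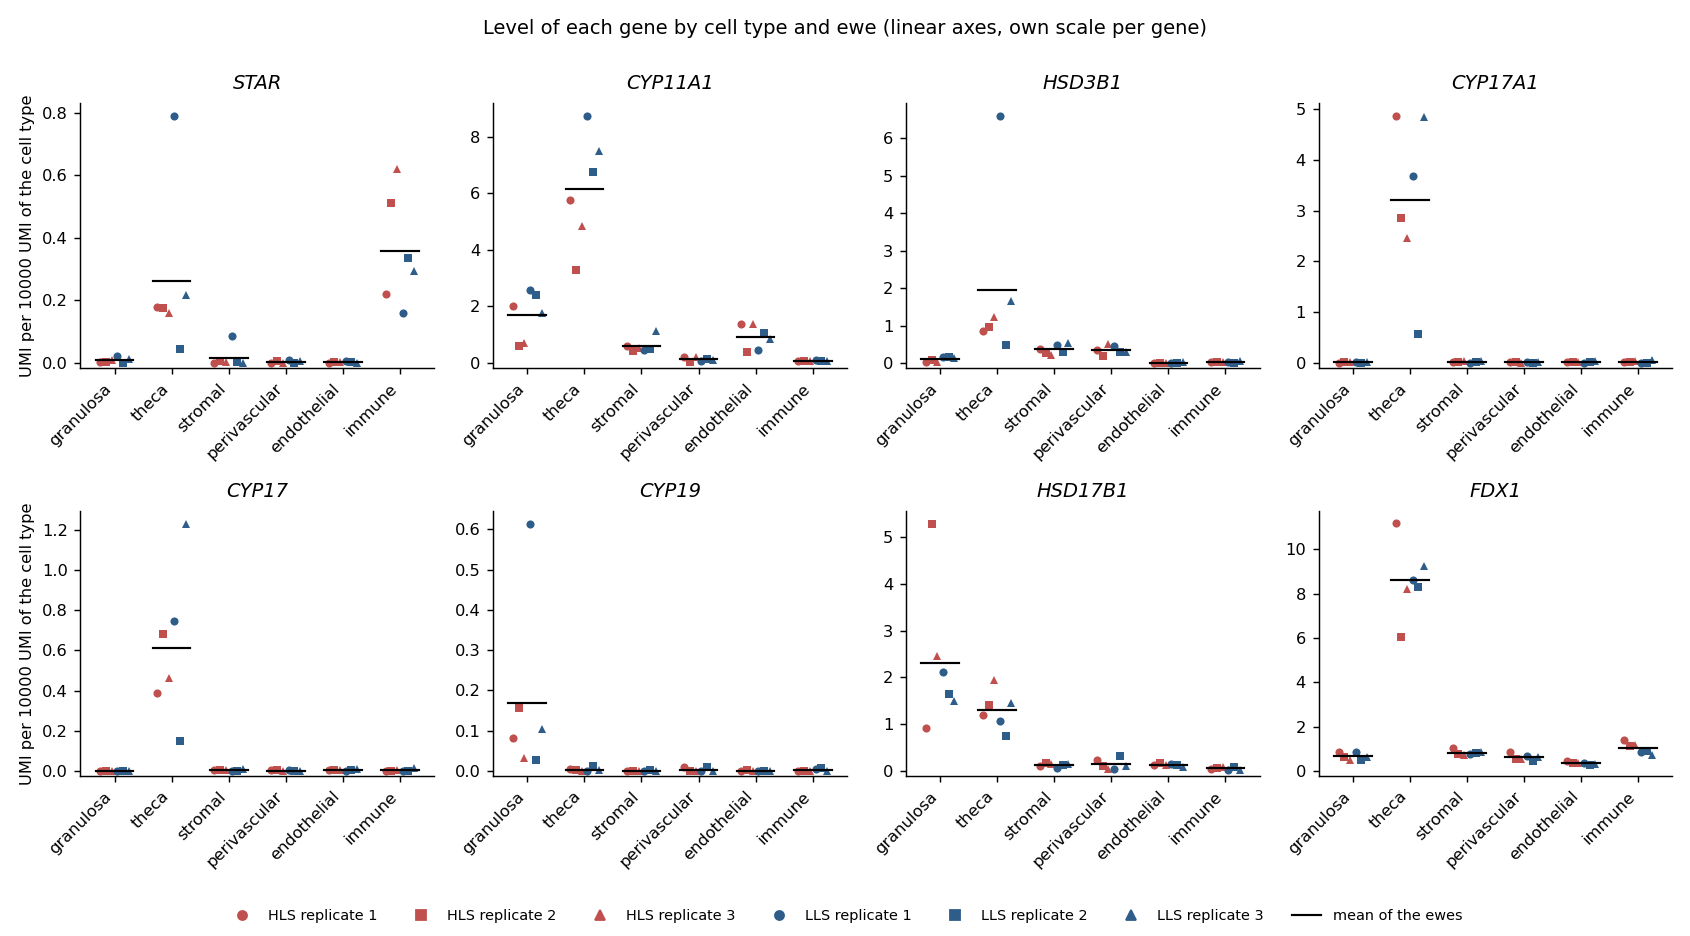
Level of each of the 8 genes in UMI per 10000 UMI of the cell type (vertical axes, linear, with a scale of their own for each gene) in 6 named cell types; each point is 1 ewe and the line is the mean of the ewes. CYP17A1 and CYP17 stood out in theca-like cells alone, STAR was highest on average in immune-like cells, and LLS replicate 1 lay far above the other ewes for HSD3B1 in theca-like cells, at 6.60 against at most 1.64.

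CYP11A1, the enzyme that commits cholesterol to steroids, stood in theca-like cells at 5.76, 3.27 and 4.83 in HLS and at 8.75, 6.76 and 7.51 in LLS. Granulosa-like cells followed with 2.02, 0.618 and 0.715 in HLS and 2.57, 2.41 and 1.77 in LLS. All 6 ewes were higher in theca-like than in granulosa-like cells, and the difference was 2.12 ± 0.27 (adjusted p = 1.07e-07). A UMI of CYP11A1 was seen in 1578 of 1964 theca-like cells (80.3%).

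Endothelial-like cells held 31.0% of all CYP11A1 UMI of the retained cells, next to 39.2% in theca-like and 10.2% in granulosa-like cells. Their levels were 1.40, 0.390 and 1.39 in HLS and 0.447, 1.07 and 0.852 in LLS. The step from granulosa-like to endothelial-like cells was small (0.66 ± 0.26 higher in granulosa-like cells, adjusted p = 0.0290) and was not called without HLS replicate 2 (adjusted p = 0.0512), LLS replicate 1 (0.182), LLS replicate 2 (0.113) or LLS replicate 3 (0.0651), nor without the ewe as a block (0.109). Stromal-like cells, at 0.602 ± 0.263 (SD, n = 6), were 0.66 ± 0.26 lower than endothelial-like cells (adjusted p = 0.0311), which was not called without HLS replicate 1 (0.158), HLS replicate 3 (0.142) or LLS replicate 2 (0.111), with DESeq2 (0.0852), without TMM factors (0.0761), without the block (0.0808), with doublets kept (0.0800) and with the cycling cells joined to their next type (0.490). Granulosa-like, endothelial-like and stromal-like cells were therefore neighbours in the order of CYP11A1 whose single steps were near the spread between ewes. From end to end, granulosa-like cells were 1.32 ± 0.27 above stromal-like cells (adjusted p = 0.000127), and 1.10 to 1.52 above them when 1 ewe was left out. Perivascular-like cells stood at 0.133 ± 0.079, which was 2.48 ± 0.34 below stromal-like cells (adjusted p = 5.71e-07), and immune-like cells stood at 0.0849 ± 0.0216.

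Within the endothelial-like cells, CYP11A1 differed by cluster. The cluster led by ADAMTS5 and APLN, the ligand of the apelin receptor, stood at 2.99 ± 0.89 (SD, n = 6 ewes), from 2.22 to 4.75. The cluster led by CXCL9 and SELP, the adhesion molecule P-selectin, stood at 1.45 ± 0.44 and the cluster with ELN and GJA5 at 1.19 ± 0.36. The cluster led by PPP1R1B and CA4 was lower at 0.628 ± 0.129, from 0.467 to 0.749, and the cluster led by MMRN1 and PROX1, which mark lymphatic vessels, was lowest at 0.0841 ± 0.0550. The largest cluster, led by COL15A1 and ESM1 (4396 cells), stood at 0.471 ± 0.467 with ewes from 0.0921 to 1.08, and the cluster led by CXCL12 and GJA4 at 0.666 ± 0.707 with ewes from 0.0484 to 1.92, so both spanned several of the others. In each ewe the APLN-led cluster was above the SELP-led one, the CA4-led one and the MMRN1-led one. FDX1 did not follow this order, with means of 0.376, 0.326, 0.366, 0.358 and 0.388 in the same 5 clusters. These clusters came from the same data and their differences were not tested.

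**Figure D2:**
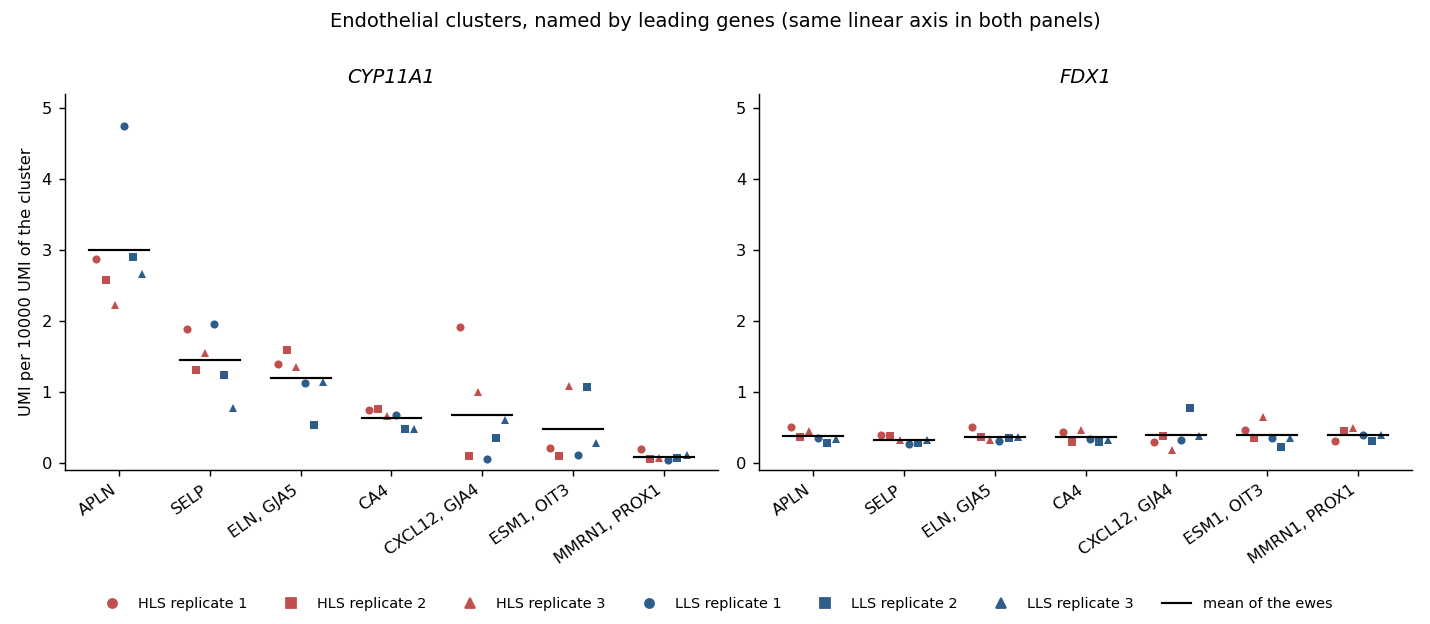
Levels of CYP11A1 (left) and FDX1 (right) in UMI per 10000 UMI in 7 endothelial-like clusters named by leading genes, on the same linear axis; points are ewes with at least 10 cells and lines are means. CYP11A1 fell from 2.99 in the APLN-led cluster to 0.0841 in the MMRN1- and PROX1-led cluster, while FDX1 stayed between 0.326 and 0.395.

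The 2 types that held most CYP11A1 differed in what accompanied it. For each 100 UMI of CYP11A1, theca-like cells had 84.5, 87.0 and 51.1 UMI of CYP17A1 in HLS and 42.2, 8.40 and 64.6 in LLS. Endothelial-like cells had 1.69, 3.02 and 2.08 in HLS and 0.729, 1.92 and 3.54 in LLS, so that the lowest theca-like ewe was above the highest endothelial-like ewe. For FDX1 the ratio was 98.4 to 194 in theca-like and 26.4 to 90.4 in endothelial-like cells. Of 3486 endothelial-like cells with CYP11A1, 102 also had CYP17A1 (2.93%), against 1.38% of all endothelial-like cells. Of 1578 theca-like cells with CYP11A1, 1102 had CYP17A1, against 58.5% of all theca-like cells.

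FDX1, the donor of electrons to CYP11A1, was the most abundant of the 8 genes in UMI in theca-like cells. It stood there at 11.2, 6.05 and 8.19 in HLS and 8.61, 8.32 and 9.27 in LLS, against 0.666 ± 0.154 in granulosa-like cells (3.89 ± 0.13 higher in theca-like cells, adjusted p = 1.80e-20). Immune-like cells came next at 1.03 ± 0.25, then stromal-like at 0.819 ± 0.119, granulosa-like at 0.666, perivascular-like at 0.613 ± 0.141 and endothelial-like cells at 0.352 ± 0.049. Each of the first steps was called, with theca-like cells 2.90 ± 0.12 above immune-like (adjusted p = 3.82e-19), stromal-like 0.59 ± 0.12 below immune-like (5.39e-05, and 0.116 with cycling cells joined to their next type) and granulosa-like 0.39 ± 0.12 below stromal-like cells (0.00584, and 0.155 without the block). Theca-like cells held 55.9% of all FDX1 UMI.

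STAR was sparse, with 1371 UMI in all retained cells, and was divided between theca-like (40.8%), immune-like (34.9%) and OXT-high cells (11.4%, described below), where 147 of 156 UMI were in 1 cell of LLS replicate 1. In theca-like cells it stood at 0.178, 0.176 and 0.160 in HLS and at 0.791, 0.0442 and 0.219 in LLS, and a UMI was seen in 274 of 1964 cells (14.0%). The 3 HLS ewes lay close together, while LLS replicate 1 was highest and LLS replicate 2 lowest. STAR was called 5.15 ± 0.63 higher in theca-like than in granulosa-like cells (adjusted p = 5.13e-08), where 18 UMI were counted in 2846 cells.

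In immune-like cells STAR stood at 0.219, 0.513 and 0.622 in HLS and at 0.161, 0.337 and 0.294 in LLS. Nearly all of it (477 of 479 UMI) was in 1 cluster of 988 cells led by CXCL8 and the complement genes C1QA, C1QB and C1QC, in which 141 cells had a UMI and the level was 0.585 ± 0.340 (SD, n = 6), from 0.213 to 1.18. The other immune-like cluster, with 1670 cells led by CD52 and GNLY and with CD3E among its leading genes, had 2 UMI. The thinned share of cells with STAR (2000 UMI drawn from each cell, shallower cells left out) was 3.02% in immune-like and 2.99% in theca-like cells, against 0.0560% in endothelial-like cells. Of the 141 cells with STAR, 3 had CYP11A1 and 94 had FDX1. STAR was higher in immune-like than in endothelial-like cells by 7.68 ± 0.59 (adjusted p = 4.61e-13), and was called 1.11 ± 0.44 lower in theca-like than in immune-like cells (adjusted p = 0.0252). The last call was lost without HLS replicate 2 (adjusted p = 0.111), HLS replicate 3 (0.154) or LLS replicate 2 (0.132), without the block (0.281), with doublets kept (0.237), with a mitochondrial limit of 20% (0.114) and with the 8 genes, the other pathway genes and the regulators left in the clustering (0.0670), so these 2 types are neighbours that did not differ steadily beyond their spread. Over the 8 genes, 2 were higher and 2 lower in immune-like than in endothelial-like cells, with 29.8% of all genes higher and 31.3% lower. STAR and ASH2L are next to each other in the order of the RefSeq gene table, and how reads that touch both were assigned is not given in the sources used here.

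**Figure D3:**
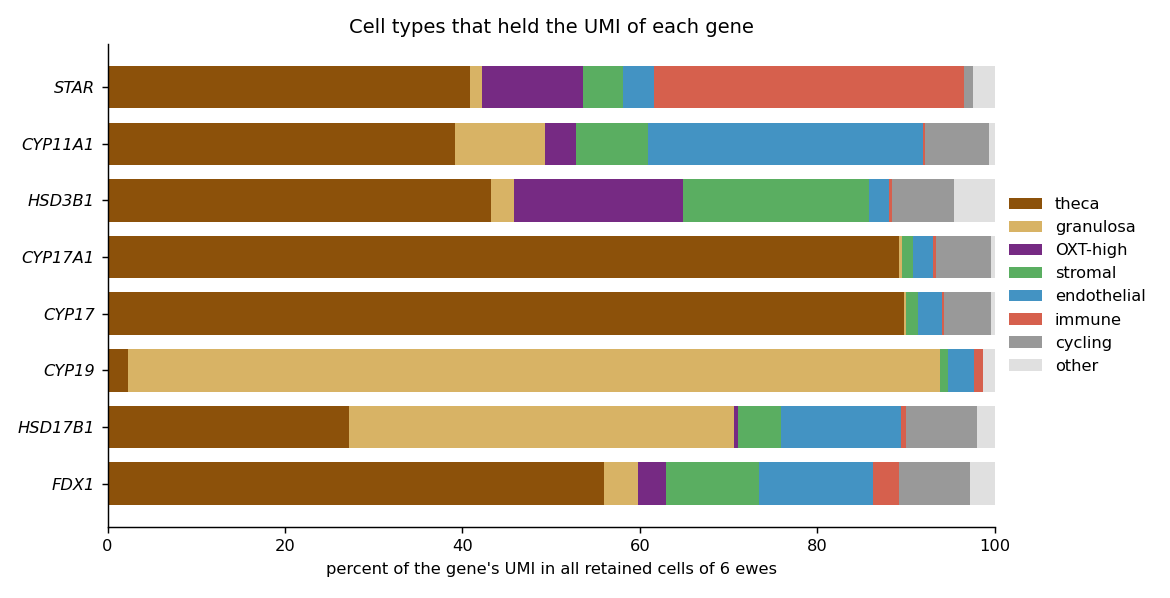
Share of the UMI of each of the 8 genes (horizontal axis, percent of all UMI of the gene in the retained cells of 6 ewes) that each cell type held; colours are cell types. CYP17A1 (89.2%) and CYP17 (89.8%) lay mostly in theca-like cells and CYP19 (91.5%) in granulosa-like cells, while CYP11A1 and STAR were divided among several types.

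In LLS replicate 1, 5 single cells carried 264 of the 384 STAR UMI of that ewe (68.8%). They were found after the values were seen, by at least 10 UMI of STAR and of CYP11A1 and none of CYP17A1. Their STAR counts were 147, 47, 31, 24 and 15, and clustering placed them among OXT-high, stromal-like, theca-like (2 cells) and unnamed cells. All 5 also had OXT (12 to 142 UMI) and PTGFR, the receptor of the prostaglandin that ends luteal life (3 to 15 UMI). LHCGR, which led the theca-like cluster, had 117, 82 and 46 UMI in 3 of them and 0 in the other 2, and INSL3, CYP19 and HSD17B1 were at 0 in all 5. The 2 theca-like ones held 299 and 344 UMI of HSD3B1. Without the 5 cells, the theca-like level of LLS replicate 1 went from 6.60 to 1.33 for HSD3B1 and from 0.791 to 0.354 for STAR. That of CYP11A1 went from 8.75 to 6.57 and that of CYP17A1 from 3.69 to 3.92. Since the cells were chosen by STAR, CYP11A1 and CYP17A1, the direction of change of these genes was set by the choice. All stromal-like STAR of this ewe (47 UMI) was in 1 of the 5 cells. STAR was called 2.08 ± 0.68 higher in stromal-like than in endothelial-like cells (adjusted p = 0.00895). The call was lost when the 5 cells, chosen by STAR itself, were left out (0.05 ± 0.72, adjusted p = 0.958). It was also lost without LLS replicate 1 (0.339), with doublets kept (0.833), with a mitochondrial limit of 20% (0.759) and with the left-out genes in the clustering (0.929).

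HSD3B1, which makes progesterone, stood in theca-like cells at 0.850, 0.962 and 1.22 in HLS and at 6.60, 0.492 and 1.64 in LLS. Stromal-like cells were next with 0.376, 0.264 and 0.225 in HLS and 0.491, 0.290 and 0.547 in LLS. Theca-like cells were 2.22 ± 0.35 above stromal-like (adjusted p = 3.53e-06) and 4.22 ± 0.40 above granulosa-like cells (adjusted p = 3.87e-10). Perivascular-like cells, at 0.352 ± 0.117, were not called different from stromal-like cells at 0.365 ± 0.13 (0.20 ± 0.37, adjusted p = 0.727). Between these 2 types, 2 of the 8 genes, CYP11A1 and FDX1, were higher in stromal-like cells (FDX1 by 0.53 ± 0.12, adjusted p = 0.000971, and 0.0730 without the block) and 0 lower, with 18.8% of all genes higher and 16.8% lower.

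Granulosa-like cells came below them at 0.0980 ± 0.0617, which was 2.00 ± 0.38 below stromal-like cells (adjusted p = 5.76e-05). HSD3B1 and FDX1 were the 2 genes called lower and CYP11A1, CYP19 and HSD17B1 the 3 called higher in granulosa-like than in stromal-like cells, where 24% of all genes were higher and 25.3% lower. Immune-like cells had 0.0256 ± 0.0136 and endothelial-like cells 0.0130 ± 0.0095, and stromal-like cells were 4.72 ± 0.41 above endothelial-like cells (adjusted p = 1.21e-11). Against endothelial-like cells 3 genes were higher in stromal-like cells (HSD3B1, FDX1 and STAR) and 1 lower, with 29.1% of all genes higher and 32.1% lower. Against immune-like cells HSD3B1 and CYP11A1 were higher and STAR and FDX1 lower in stromal-like cells, with 33.6% and 32.9% of all genes higher and lower.

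Among the stromal-like clusters, the one led by PTCH1, the receptor of hedgehog ligands, held 2501 of 3203 CYP11A1 UMI and 1047 of 1860 HSD3B1 UMI in 2364 of 8245 cells. CYP11A1 stood there at 1.28 ± 0.50 (SD, n = 6), HSD3B1 at 0.636 ± 0.441 and FDX1 at 1.22 ± 0.68, and 66 HSD3B1 UMI of LLS replicate 1 were in 1 of the 5 cells above. In the cluster led by ACTA2 and TAGLN these were 0.273 ± 0.121, 0.269 ± 0.083 and 0.777 ± 0.231, and in the cluster led by SERPINF1 and DPT CYP11A1 stood at 0.0812 ± 0.0316. In the stromal-like cells 405 of 1467 cells with CYP11A1 also had HSD3B1 (27.6%).

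CYP17A1, the enzyme of androgen synthesis, lay mostly in theca-like cells, which held 89.2% of its UMI. In theca-like cells it stood at 4.87, 2.85 and 2.47 in HLS and 3.69, 0.568 and 4.85 in LLS. LLS replicate 2 was the low ewe, with 90 UMI in 172 cells, and the groups overlapped. The means of the other named types lay between 0.0140 and 0.0251, and the step from theca-like to stromal-like cells was 7.26 ± 0.44 (adjusted p = 3.40e-14). After thinning, 32.4% of theca-like cells had a UMI (58.5% of all 1964, median 13989.5 UMI per cell), against 0.413% of endothelial-like (1.38% of all, median 8497), 0.524% of stromal-like, 0.306% of granulosa-like and 0.33% of immune-like cells. These low shares were alike in types that are not known to make androgen, and whether they are background was not tested. CYP17A1 was not called different from endothelial-like cells in granulosa-like (adjusted p = 0.416), stromal-like (0.647) or immune-like cells (0.451). With cycling clusters joined to their next type, CYP17A1 of stromal-like cells went from 0.0228 to 0.112 and was called 2.27 ± 0.45 above endothelial-like cells (adjusted p = 6.25e-05). The clusters named as cycling, which were kept apart, carried 6.24% of the CYP17A1 UMI.

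The second gene, CYP17, followed it at a lower count. Its theca-like levels were 0.387, 0.681 and 0.461 in HLS and 0.749, 0.151 and 1.23 in LLS. As a share of the UMI of both genes it made up 7.36%, 19.3% and 15.7% in HLS and 16.9%, 21.1% and 20.3% in LLS, with HLS replicate 1 the lowest. Of 739 theca-like cells with CYP17, 697 also had CYP17A1 (94.3%). No gene lies between both in the order of the RefSeq gene table (ARS-UI_Ramb_v3.0), and how reads that fit both were assigned is not stated, so the division between them is uncertain.

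Within the theca-like cells the steps of the pathway were seen together. CYP11A1 and CYP17A1 were both detected in 1102 of 1964 cells (56.1%), these with HSD3B1 in 719 (36.6%) and these 3 together with STAR in 200 (10.2%). Of the 274 cells with STAR, 261 had CYP17A1 (95.3%), against 58.5% of all theca-like cells. These are shares of cells with a UMI and rise with the depth of a cell.

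CYP19, the aromatase that makes oestrogen, was rare, with 305 UMI in all retained cells and 279 of them in 111 of 2846 granulosa-like cells (3.90%). After thinning the share was 1.65% in granulosa-like, 0.226% in theca-like and 0.0210% in endothelial-like cells, at median depths of 8253.5, 13989.5 and 8497 UMI. The counts were 32, 67 and 28 in HLS and 111, 16 and 25 in LLS, which is 0.0827, 0.156 and 0.0324 per 10000 in HLS and 0.614, 0.0265 and 0.104 in LLS. LLS replicate 1 was far above the others and LLS replicate 2 was lowest, so the LLS ewes spanned the HLS ewes. CYP19 was called 5.04 ± 0.60 lower in theca-like than in granulosa-like cells (adjusted p = 3.47e-08) and 7.65 ± 0.58 higher in granulosa-like than in endothelial-like cells (adjusted p = 4.14e-13). Of the 111 cells with CYP19, 80 had HSD17B1 (72.1%), 49 had CYP11A1 (44.1%) and 2 had CYP17A1 (1.80%).

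HSD17B1, which completes oestradiol, stood in granulosa-like cells at 0.915, 5.29 and 2.45 in HLS and 2.11, 1.64 and 1.5 in LLS, and in theca-like cells at 1.21, 1.41 and 1.94 in HLS and 1.07, 0.751 and 1.45 in LLS. HLS replicate 2 was highest and HLS replicate 1 lowest in granulosa-like cells, and the same ewes had the highest and the lowest share of cumulus-type cells (43.9% and 5.45%). The difference between both types was not called (0.54 ± 0.28 lower in theca-like cells, adjusted p = 0.119), but was called without TMM factors (adjusted p = 0.0374). Both stood above the remaining types, at 0.131 in stromal-like and 0.129 in endothelial-like cells, with theca-like cells 3.45 ± 0.31 above stromal-like (adjusted p = 1.72e-10) and granulosa-like cells 3.90 ± 0.31 above endothelial-like cells (adjusted p = 1.56e-12). Over the 8 genes, 5 were higher in granulosa-like than in endothelial-like cells and 0 lower, with 31.2% of all genes higher and 32.8% lower. Immune-like cells were called 0.96 ± 0.40 below endothelial-like cells (adjusted p = 0.0378), which was not called without HLS replicate 2 (0.0510), LLS replicate 1 (0.160) or LLS replicate 3 (0.0620), with doublets kept (0.0780), with cycling cells joined to their next type (0.0545) and without the block (0.05).

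Granulosa-like cells were divided further by lists of subtype markers that included markers of the study, again without the 8 genes. The early-type list was WT1, WNT6, FOS, JUNB and SYNE2. TNNI3, which the study also used for early granulosa cells, was not on it and was among the leading genes of a cumulus-type sub-cluster. The division gave cumulus-type (499 cells), early-type (468) and mural-type (814) cells, while 927 cells stayed unnamed. The study had itself used CYP11A1 among the markers of its mural cells, and found HTRA3, AMH and INHA as subtype markers in these same ewes. The subtype names are therefore not independent of CYP11A1. HSD17B1 was closest in pattern to INHA (r = 0.85), a cumulus-type marker, so they are not independent of HSD17B1 either. The tests between subtypes describe groups drawn from these same data and are no independent support. The unnamed share was 11.3%, 29.3% and 52.6% in HLS and 12.8%, 14.5% and 47.5% in LLS, under a limit on the marker score that was set after the clusters were seen. A cluster of 138 cells led by LHCGR and INHBA was kept apart. Of the 499 cumulus-type cells, 195 formed a sub-cluster led by TOP2A, CENPF and UBE2C, which mark cycling cells. HSD17B1 stood there at 7.88 ± 1.80 (SD, n = 5 ewes) and in the other cumulus-type sub-cluster at 8.23 ± 1.90 (n = 6). Of the 8 genes, 4 had enough counts to be tested between subtypes.

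Among cumulus-type, early-type and mural-type cells, HSD17B1 and CYP11A1 were highest in different subtypes. The LHCGR- and INHBA-led cluster held both CYP11A1 and CYP19, as described below. HSD17B1 stood in cumulus-type cells at 8.09, 8.09 and 10.2 in HLS and 8.99, 5.83 and 6.54 in LLS, in early-type cells at 1.71 ± 0.705 and in mural-type cells at 0.152 ± 0.015 (SD, n = 6). CYP11A1 went the other way, with 2.16, 2.64 and 2.50 in HLS and 3.07, 3.94 and 4.77 in LLS in mural-type cells, against 0.454 ± 0.433 in cumulus-type and 0.224 ± 0.184 in early-type cells. In each of the 6 ewes HSD17B1 was higher in cumulus-type and CYP11A1 higher in mural-type cells. From cumulus-type to mural-type cells HSD17B1 fell by 5.73 ± 0.17 (adjusted p = 2.81e-17) and CYP11A1 rose by 3.25 ± 0.35 (adjusted p = 3.72e-08).

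HSD3B1 was highest in early-type cells at 0.309, 0.199 and 0.0836 in HLS and 0.562, 1.57 and 0.935 in LLS. It was 2.57 ± 0.59 above cumulus-type cells there (adjusted p = 0.00104) and 4.86 ± 0.65 below this level in mural-type cells (adjusted p = 1.96e-06). Of the 132 HSD3B1 UMI of early-type cells, 120 were in 1 sub-cluster of 137 cells. Its leading genes included CYTL1, NTRK2, WNT6 and RGS5, the last of which is also on the perivascular marker list used here. The 120 UMI were 52.9% of the 227 HSD3B1 UMI of granulosa-like cells, and 82 of the 137 cells came from LLS replicate 2. The other early-type sub-cluster (331 cells, with WT1 among its leading genes) held 12 UMI. HSD3B1 stood there at 0.0588 ± 0.0488 (SD, n = 6), against 0.0931 ± 0.144 in cumulus-type cells. The higher HSD3B1 of early-type cells therefore rested on 1 sub-cluster. HSD17B1 also differed between the early-type sub-clusters, at 0.233 ± 0.084 (SD, n = 3 LLS ewes) in the one rich in HSD3B1. It stood at 2.28 ± 0.91 (n = 6) in the other, so the early-type mean of HSD17B1 pools unlike cells. The lower HSD3B1 of mural-type than of cumulus-type cells (2.30 ± 0.82, adjusted p = 0.0218) was not called without HLS replicate 2 (0.0865) or without the block (0.0538). FDX1 was not called between any 2 of the subtypes, with means of 0.504, 0.626 and 0.644 in cumulus-type, early-type and mural-type cells and adjusted p of 0.442 for mural-type against cumulus-type, 0.986 for early-type against cumulus-type and 0.497 for mural-type against early-type cells. Over the 4 genes tested, 1 was higher and 2 lower in mural-type than in cumulus-type cells (27.2% and 25.8% of all 7836 genes), 1 and 1 in early-type against cumulus-type cells (23.8% and 23.6%), and 1 and 2 in mural-type against early-type cells (24.5% and 22.6%).

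**Figure D4:**
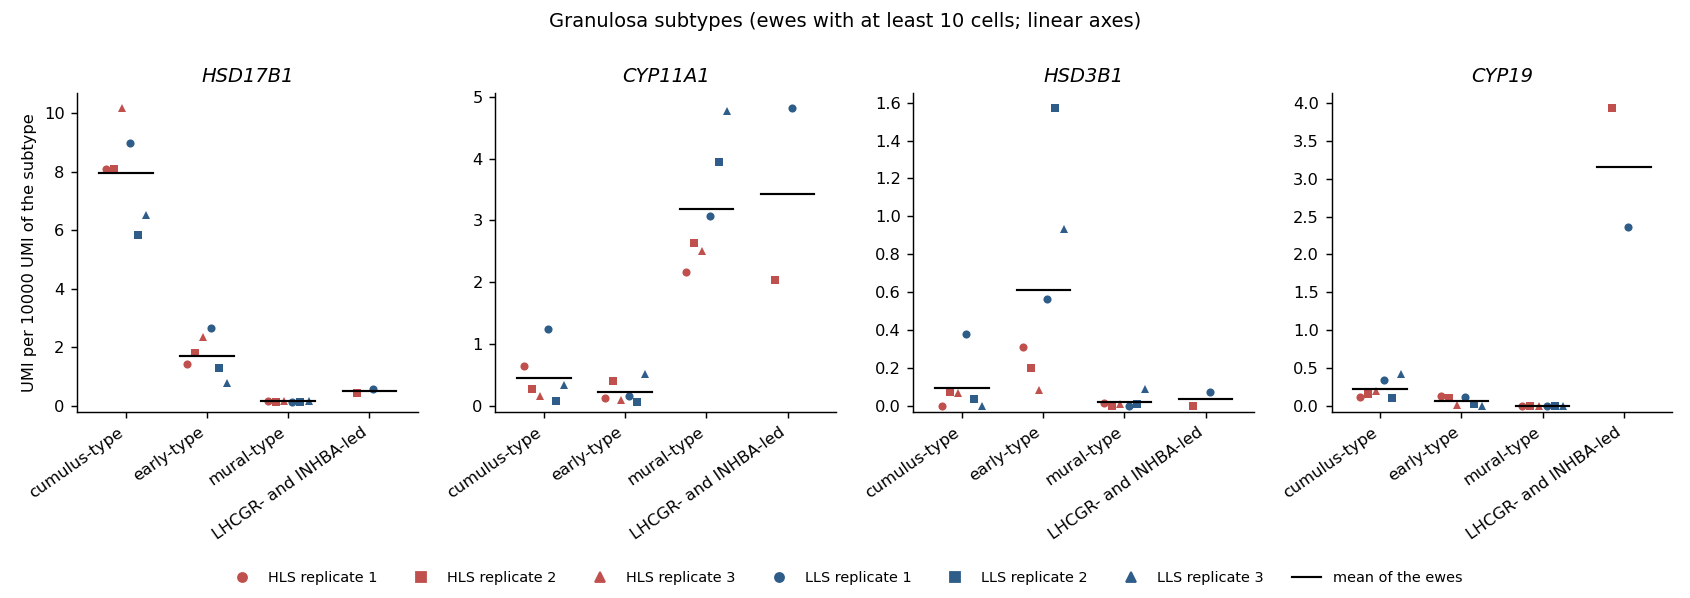
Levels of HSD17B1, CYP11A1, HSD3B1 and CYP19 in UMI per 10000 UMI (vertical axes, linear) in granulosa-like subtypes; points are ewes with at least 10 cells of the subtype and lines are means. HSD17B1 was highest in cumulus-type cells (5.83 to 10.2), CYP11A1 in mural-type cells (2.16 to 4.77) among the subtypes seen in 6 ewes, and CYP19 stood highest in the LHCGR- and INHBA-led cluster of LLS replicate 1 and HLS replicate 2.

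CYP19 was split between 2 granulosa-like populations. Cumulus-type cells had 108 UMI in 64 of 499 cells, at 0.121, 0.150 and 0.199 in HLS and 0.344, 0.107 and 0.418 in LLS. The LHCGR- and INHBA-led cluster had 161 UMI in 37 of 138 cells (57.7% of all granulosa-like CYP19), although its median depth was only 2574.5 UMI per cell. It drew 105 cells from LLS replicate 1 and 24 from HLS replicate 2, 5, 3 and 1 from HLS replicate 1, LLS replicate 3 and LLS replicate 2, and 0 from HLS replicate 3, so no test was made. CYP19 stood there at 2.36 in LLS replicate 1 and 3.94 in HLS replicate 2, with CYP11A1 at 4.82 and 2.04. The 5 cells of HLS replicate 1 held 27 of the 32 CYP19 UMI of its granulosa-like cells. In mural-type cells 0 of 814 cells had CYP19, which allows a share of up to 0.369% of cells with a UMI, and against a floor of 3 counts over the group CYP19 was at least 65.0-fold higher in cumulus-type and at least 1091-fold higher in LHCGR- and INHBA-led cells. These limits cover counting error only.

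A group of 103 cells was set apart by oxytocin, with OXT at 327 UMI per 10000, and 102 of them came from LLS replicate 3. In these 102 cells (1113664 UMI) HSD3B1 stood at 15.1 (exact Poisson 95% interval 14.4 to 15.9, counting error only), CYP11A1 at 12.0 (11.3 to 12.6) and FDX1 at 11.5 (10.9 to 12.2). These 3 levels were above those of theca-like cells in the same ewe, which were 1.64, 7.51 and 9.27. STAR was low at 0.0808 (0.0370 to 0.153), CYP17A1 had 2 UMI, and CYP17 and CYP19 had none, for which the upper limit of the same interval is 0.0331 UMI per 10000. All 103 cells together held 19.1% of the HSD3B1 UMI of the retained cells. With 1 ewe there is no test.

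The markers of this group did not settle its type. Of the luteal-type list PTGFR was detected in 66, PKIB in 77 and LHCGR in 13 of the 103 cells, at 4.72, 2.80 and 0.143 UMI per 10000. Of the granulosa list SERPINE2 was detected in 39, CDH2 in 26 and INHA in 24 cells, at 0.866, 0.563 and 0.759. These levels were low, since the whole list summed to 34.6 to 63.0 in granulosa-like and to 2.60 to 4.93 in theca-like cells. AMH, FSHR and IHH were at 0, as were INSL3 and DLK1 of the theca list. The haemoglobin genes LOC101105185 and LOC100134870 stood at 53.5 and 44.7 UMI per 10000. They are therefore named by OXT here and not as luteal cells. Luteal-type cells could not be compared with other types or between HLS and LLS.

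Other genes of the pathway were read from a fixed list, of which 20 of 25 were measured and 18 tested. In theca-like against granulosa-like cells 11 of them were higher and 1 lower (21.8% and 23.3% of all genes), with a median of 0.64 against -0.02 over all genes. The largest rises were SCARB1, the receptor that takes up cholesterol from lipoproteins (2.29 ± 0.24, adjusted p = 2.01e-09), and FDXR, the reductase that feeds FDX1 (2.21 ± 0.22, adjusted p = 8.57e-10), and the lower gene was TSPO, a protein of the outer mitochondrial membrane (2.02 ± 0.23 lower, adjusted p = 1.53e-08). FDXR stood at 1.02 ± 0.29 UMI per 10000 in theca-like, 0.258 in granulosa-like and 0.0443 in endothelial-like cells, which places it with FDX1 in theca-like cells. SCARB1 stood at 1.97 ± 0.20 in endothelial-like and 1.80 ± 0.85 in theca-like cells, a difference that was not called (-0.24 ± 0.22, adjusted p = 0.345).

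Against stromal-like cells 10 of the 18 were higher and 2 lower in theca-like cells (20.3% and 25.5% of all genes), at a median of 0.63 against -0.06 over all genes, with SCARB1 3.83 ± 0.25 and FDXR 3.65 ± 0.23 higher (adjusted p = 1.88e-13 and 6.47e-14). The 2 lower ones were HSD11B1, which restores active glucocorticoid (4.59 ± 0.60 lower, adjusted p = 2.01e-07, with 3 UMI in theca-like cells), and TSPO (1.93 ± 0.23 lower, adjusted p = 3.76e-08). None of the listed genes was called between HLS and LLS.

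Of 7 regulators, 2 were higher and 3 lower in theca-like than in granulosa-like cells, where 21.8% and 23.3% of all genes were, so the share of higher ones was near that of all genes. NR5A1, known as SF-1 and an activator of steroid enzyme genes, was 2.59 ± 0.30 higher (adjusted p = 1.56e-08) at 0.0918 ± 0.0246 UMI per 10000. The related receptor NR5A2 was 6.50 ± 0.36 lower (adjusted p = 2.93e-15), at 0.0132 in theca-like and 1.39 ± 0.57 in granulosa-like cells, and stood at 0.383 ± 0.060 in endothelial-like and 5.54 in OXT-high cells. FOXL2, a factor of granulosa identity, was 0.81 ± 0.25 lower (adjusted p = 0.00829), which was lost without HLS replicate 2 (0.0564). NR5A1 was also 2.33 ± 0.27 higher in theca-like than in stromal-like cells (adjusted p = 2.19e-08), the only regulator called there.

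The genes closest in pattern were ranked by Pearson's r over 58 sums of 11 types and 6 ewes, which share libraries and depth, as a description. CYP17A1 was closest to LOC101117493 (r = 0.90), and CYP17A1 and CYP17 stood at 0.87 to each other. HSD17B1 was closest to INHA, the inhibin alpha subunit (0.85), CYP19 to MUSK (0.89) and FDX1 to NDUFAF3 (0.78) with its reductase FDXR at 0.77. CYP11A1 was closest to PEBP1 (0.80), HSD3B1 to LOC105603050 (0.86) and STAR to BCL11B (0.79). The immune-like sums pool the C1QA-led cluster, which held nearly all immune-like STAR, with the cluster led by CD52 and GNLY. The match of STAR with BCL11B therefore does not place both in the same cells. Among the 8 genes CYP11A1 went most with HSD17B1 (0.70) and FDX1 with CYP17 (0.72), while CYP19 and CYP17A1 had r = -0.12. These values are over whole types. Among cumulus-type, early-type and mural-type cells, CYP11A1 and HSD17B1 were highest in different subtypes.

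Between HLS and LLS ewes, none of the 8 genes passed the adjusted threshold where it was tested. Of the 8, 5 had enough counts in granulosa-like, 7 in theca-like, 5 in stromal-like, 6 in endothelial-like and 4 in immune-like cells. All 8 were tested in the sum of all cells. Perivascular-like cells were not compared between the groups. The quasi-likelihood test of edgeR called 0% of all genes in granulosa-like (11942 genes, 573 with an unadjusted p under 0.05), 0% in theca-like (12276, 425), 0% in stromal-like (13751, 646), 0% in endothelial-like (15153, 190), 0% in immune-like (10222, 481) and 0% in the sum of all cells (17955, 545). DESeq2 called 1, 0, 1, 4, 22 and 61 genes in these, none of them among the 8. A design with 3 ewes in each group gives wide intervals here, and a missed threshold does not show that the groups were alike. The sums of a type do not separate fewer cells that express a gene from less RNA in each of them. Shares of cells with a UMI were not compared between the groups.

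In theca-like cells CYP11A1 was lower in every HLS than in every LLS ewe, 3.27 to 5.76 against 6.76 to 8.75, but the fitted difference was -0.52 ± 0.30 (adjusted p = 0.959). It was the 1 of 7 tested genes whose groups did not overlap, where 10.7% of all genes did not overlap. HSD17B1 was higher in HLS by 0.63 ± 0.25 (adjusted p = 0.959) with overlapping groups. The lower HSD3B1 and STAR of HLS (-1.36 ± 0.68 and -0.77 ± 0.66, adjusted p = 0.959 each) went to -0.04 ± 0.35 and -0.05 ± 0.48 when the 5 STAR-rich cells of LLS replicate 1 were left out (adjusted p = 0.999 each). Those cells were chosen by their STAR, so the direction of the STAR change was set by the choice. They were chosen after the values were seen and included the 2 cells with the most HSD3B1 UMI (344 and 299). The HSD3B1 change is therefore a description and not an independent check. CYP17A1 differed by 0.39 ± 0.61, CYP17 by -0.35 ± 0.52 and FDX1 by 0.18 ± 0.31, and the sign of each changed without 1 of the ewes, that of FDX1 also without TMM factors.

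In granulosa-like cells HSD3B1 was the 1 of 5 tested genes without overlap (14.7% of all genes), with counts of 10, 32 and 28 UMI in HLS and 29, 95 and 33 in LLS, or 0.0258, 0.0746 and 0.0324 against 0.160, 0.157 and 0.137 per 10000. The difference was -1.62 ± 0.38 (adjusted p = 0.940, unadjusted p = 0.00281 of edgeR's quasi-likelihood test). Outside the early-type sub-cluster rich in HSD3B1, the levels were 0.0131, 0.0657 and 0.0324 in HLS and 0.0980, 0.0296 and 0.0513 in LLS, which overlap. This sub-cluster was singled out by its HSD3B1, so the overlap without it is a description and not an independent check. That sub-cluster gave 8, 6 and 1 cells in HLS and 20, 82 and 20 cells in LLS.

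CYP11A1 of granulosa-like cells differed by -0.76 ± 0.48 with overlap, and by -1.63 to -0.45 when 1 ewe was left out. Within mural-type cells, all HLS ewes (2.16 to 2.64) were below all LLS ewes (3.07 to 4.77), where 8.3% of 7836 genes did not overlap, and this was not tested within the subtype. Mural-type cells pooled sub-clusters with CYP11A1 at 1.43, 3.78 and 5.28 over all their cells. The one at 3.78, with MX1, ISG15 and IFI6 among its leading genes, drew 199 of its 203 cells from LLS replicate 2. That ewe had 263 mural-type cells, so its mural-type value came mostly from this sub-cluster. In the one at 1.43 the groups did not overlap in CYP11A1 (1.04 ± 0.53 in HLS, 2.62 ± 0.83 in LLS, SD, 3 ewes each). Nor did they there in HSD17B1 (means of 0.145 in HLS and 0.114 in LLS). The share of all genes without overlap in this sub-cluster is not given here, so no result is read from it. In the one at 5.28 the groups overlapped in CYP11A1 (5.53 ± 2.04 in HLS, 5.93 ± 0.15 in LLS, 2 ewes each). HSD17B1 of granulosa-like cells differed by 0.88 ± 0.50, in the other direction from CYP11A1, and by 0.12 without HLS replicate 2. The share of cumulus-type cells was 5.45%, 43.9% and 12.2% in HLS and 8.79%, 19.5% and 10.6% in LLS, with the highest share in the ewe with the highest HSD17B1. CYP19 differed by -1.17 ± 1.01 and by 0.73 without LLS replicate 1, the ewe that gave 105 of the 138 LHCGR- and INHBA-led cells. The part of the cell makeup in these values was not tested. The HLS effect was not called different between theca-like and granulosa-like cells for any of the 8 genes, with the largest estimate for HSD3B1 (1.08 ± 0.83, adjusted p = 1), which went from 0.050 without LLS replicate 2 to 2.03 without LLS replicate 1.

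**Figure D5:**
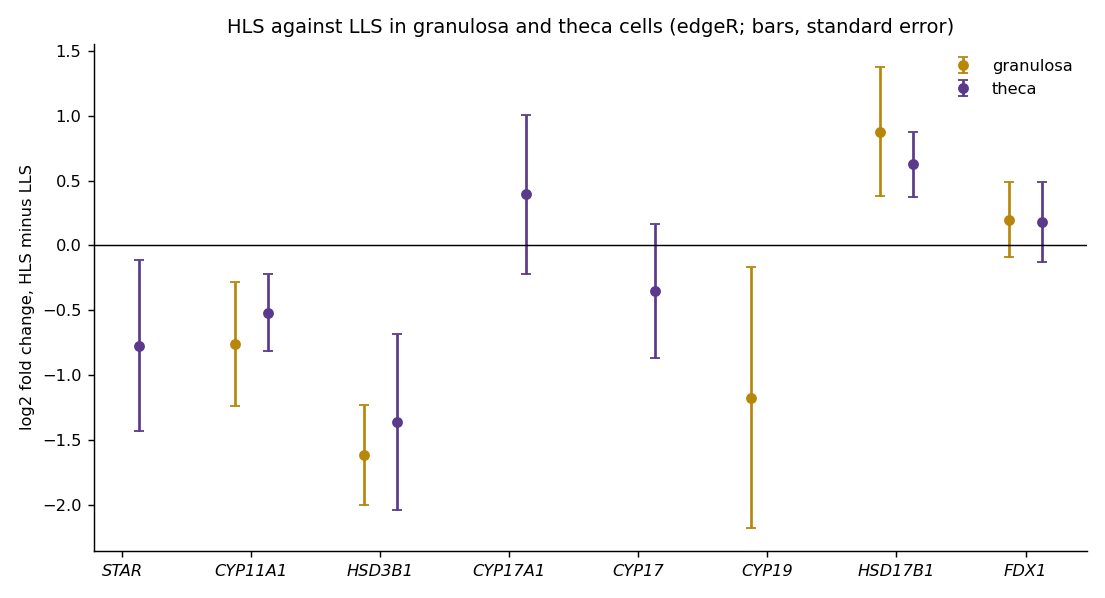
Log2 fold change of HLS minus LLS (vertical axis) of each gene tested in granulosa-like and theca-like cells; points are edgeR estimates and bars their standard error, with 3 ewes per group. None passed the adjusted threshold, and HSD3B1 in granulosa-like cells was the farthest from 0 at -1.62.

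Outside the follicle-derived types, FDX1 was the gene whose groups did not overlap. In immune-like cells it stood at 1.41, 1.11 and 1.17 in HLS and 0.866, 0.899 and 0.707 in LLS (0.69 ± 0.25, adjusted p = 0.962), where 8.94% of all genes did not overlap. In endothelial-like cells it stood at 0.428, 0.353 and 0.380 in HLS and 0.340, 0.283 and 0.332 in LLS (0.39 ± 0.22, adjusted p = 1), where 4.47% did not overlap. The C1QA-led cluster made up 23.6%, 40.0% and 27.4% of the immune-like cells in HLS and 53.6%, 38.0% and 35.1% in LLS. No gene of the 8 stood apart in stromal-like cells, where 9.74% of all genes did, or in the sum of all cells, where 8.4% did. STAR of immune-like cells was 0.86 ± 0.35 higher in HLS with overlapping groups (adjusted p = 0.962).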

How the data were processed

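Single cells of 1 ovary from each of 6 Hu ewes (3 HLS and 3 LLS) were sequenced with the 10x Chromium 3′ v3 chemistry. The deposited matrices hold raw UMI counts per gene and barcode, made by the authors with Cell Ranger (5.0.0 per the file headers), and the genome build is not given in the sources used here. The 8 genes matched by symbol, 8 of 8, in the RefSeq gene table (ARS-UI_Ramb_v3.0), which also gave the order of neighbouring genes, and no coordinates of it are printed. The members and gene lists were chosen with earlier results of these data known.

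Barcodes with at least 200 genes, 1000 UMI, a log10 ratio of genes to UMI of 0.7, at most 10% mitochondrial and 5% haemoglobin UMI were kept (38464 of 52290), and 2007 doublets (5.22%) were removed after scoring against 2 simulated doublets per cell at a rate of 0.8% per 1000 cells. Cells were clustered from 2000 variable genes and 30 principal components (20 for granulosa-like cells) with 20 neighbours and Leiden clustering at resolution 0.8 (leidenalg 0.10.2), which gave 30 clusters named from marker lists. Granulosa sub-clusters needed a marker score of 0.5, set after the clusters were seen, and 124 endothelial-led cells were left out.

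UMI were summed per ewe and type (at least 10 cells) and tested with edgeR 4.0.16 (filterByExpr, TMM, quasi-likelihood, Benjamini-Hochberg over all genes, threshold 0.05, R 4.3.3), with the ewe as a block between types and subtypes, since these come from the same animal. HLS and LLS were compared without a block, over 3 ewes against 3. The scripts were tested on simulated data. DESeq2 1.42.0, other filters, scalings, clusterings, and leaving out each ewe were alternatives, and leaving out 5 cells rich in STAR was added after seeing the data. Contrasts of theca-like, granulosa-like and stromal-like with immune-like cells, of granulosa-like with stromal-like cells, and those with perivascular-like cells were added after the levels were seen. The planned luteal-type contrasts were not fitted, since 102 of 103 OXT-high cells came from 1 ewe. All 8 genes were named. Of the other pathway genes and regulators, up to 3 with the largest fold change in each direction past the threshold were named per contrast, and the genes closest in pattern by Pearson's r, of which that for CYP17 is not reported here. Poisson intervals, at 95%, and floors of 3 counts cover counting error only.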

Additional observations from a re-analysis of the deposited data

Results flagged for a closer look

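In 32 pairs of a gene and a cell type with at least 50 UMI, the ewe farthest from the others was compared with the range of the 6 ewes, and 7 pairs had a gap above Dixon's critical value for 6 samples. Chance flags about 1 in 20 such groups. LLS replicate 1 stood apart for CYP19 in granulosa-like cells (0.614 UMI per 10000, next ewe 0.156), STAR in theca-like cells (0.791, next 0.219), HSD3B1 in theca-like cells (6.60, next 1.64) and STAR in stromal-like cells (0.0870, next 0.00806). Without the 5 STAR-rich cells of this ewe the last 3 became 0.354, 1.33 and 0, where the fall of STAR was set by how the cells were chosen. The 5 cells included the 2 with the most HSD3B1 UMI, so the fall of HSD3B1 is no independent check. HLS replicate 2 stood apart for HSD17B1 in granulosa-like cells (5.29, next 2.45), and its share of cumulus-type cells was 43.9%. LLS replicate 3, the ewe with the OXT-high cells, stood apart for CYP11A1 in stromal-like cells (1.12, next 0.589) and for HSD3B1 in endothelial-like cells (0.0318, next 0.0137). The part of these cells in the values was not tested.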

How the results depend on the processing

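Of 72 called differences between types or subtypes (members and named pathway genes), 61 kept direction and call under every alternative that could be fitted, and 64 did so without the ewe as a replicate block. Members called moved from 4 to 2 for stromal-like against endothelial-like cells with doublets kept, from 2 to 1 without the block and to 4 with cycling clusters joined for stromal-like against perivascular-like cells, and from 2 to 4 for early-type against cumulus-type cells with no filter on low counts, where leaving out 1 ewe gave 1 to 2. None of the 240 recomputed HLS minus LLS values of members was called. Replicate numbers do not pair HLS with LLS ewes (r of same-numbered ewes -0.06, -0.31 and 0.04), and with a replicate block 0 members were called, HSD3B1 differing by -1.67 in granulosa-like and -0.64 in theca-like cells.

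Signs changed for CYP17A1 in stromal-like against endothelial-like cells with DESeq2 (-0.038), and without TMM factors for FDX1 between HLS and LLS in granulosa-like (-0.024) and theca-like cells (-0.045). FDX1 in early-type against cumulus-type cells changed to 0.17 without TMM factors, 0.026 with DESeq2 and 0.046 without the block. Leaving out 1 ewe gave -0.15 to 0.10 for it, and for HLS minus LLS -0.10 to 0.40 (FDX1) and -1.81 to 0.73 (CYP19) in granulosa-like cells and, in theca-like cells, -0.24 to 0.41 (FDX1), -0.14 to 0.91 (CYP17A1), -1.86 to 0.074 (HSD3B1), -1.29 to 0.42 (STAR) and -0.81 to 0.36 (CYP17). The cause was not tested.

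Without TMM factors the median of all genes moved by -0.18 for theca-like against granulosa-like, -0.11 for theca-like against stromal-like, 0.16 for granulosa-like against endothelial-like and 0.27 for stromal-like against immune-like cells, and by -0.18 and -0.17 for HLS minus LLS in granulosa-like and theca-like cells. CYP19 and STAR rest on few UMI, and luteal cells could not be tested.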
